A study of Mus musculus with 6 samples.

Results

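The endoplasmic reticulum (ER) folding and unfolded protein response genes are 39 genes chosen by symbol from the 27634 genes of the deposited table. The choice was made with earlier results of these data known. They were 9 chaperones and cochaperones, 8 enzymes that act on disulfide bonds or prolines, 2 lectin chaperones, 4 stress sensors and transcription factors, 8 factors of ER-associated degradation and 8 genes of translocation, signal peptide removal and vesicle exit. All 39 were found, and all 39 passed the filter on low counts. RNA came from cells labelled cancer-associated dendritic cells, in C57BL/6 mice bearing ID8-Defb29/Vegf-a, which derives from a line of ovarian tumour cells. The mice were treated with 100 µg of siRNA in nanocomplexes of rhodamine-conjugated polyethylenimine, a polymer carrier. The first day given is day 32 and the last is day 38. The groups were Satb1 siRNA (2 libraries) and non-targeting (NT) siRNA (2 libraries) in an experiment labelled as highly downregulated for Satb1, called high here. A second experiment, labelled as low downregulation and called low here, had 1 library with Satb1 siRNA and 1 with NT siRNA. Satb1 encodes a chromatin organiser. The sources used here do not say how cells were sorted or whether animals were pooled. The siRNA was given to the living animal, and Satb1 was not deleted.

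Secreted and membrane proteins enter the ER through the Sec61 channel, lose their signal peptide and are folded there by chaperones such as BiP (Hspa5) and by protein disulfide isomerases. When unfolded protein accumulates, the sensors IRE1 (Ern1), ATF6 and PERK (Eif2ak3) respond. IRE1 splices the Xbp1 message, ATF6 is released as a transcription factor and PERK phosphorylates a translation factor. Spliced XBP1 and ATF6 raise genes of folding and of ER-associated degradation, through which misfolded protein is passed back to the cytosol. Dendritic cells and macrophages use this machinery for secreted cytokines and for surface receptors, and XBP1 has known roles in dendritic cells. Counts per gene do not tell spliced from unspliced Xbp1.

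Total counts ran from 24553454 to 71272720 per library. The repeats of a high group were close to counting noise, with a mean chi-square per gene of 1.37 for Satb1 siRNA and 1.202 for NT siRNA (about 1 under counting noise alone), and of 1.201 and 1.321 over the members. Each high group therefore counts as 1 sample of its condition, and the p-values of the high experiment compare only these libraries. The standard error (SE) given with a change was derived from the edgeR test, as the absolute change over the square root of its F statistic. For some members with many counts, such as P4hb and Canx, it was smaller than counting error alone gives. Such SEs and p-values understate the error and do not measure the spread between animals. Satb1 had 184 and 200 counts in the high Satb1 siRNA libraries, against 1233 and 1193 in the high NT libraries. In the low experiment it had 165 counts with Satb1 siRNA and 170 with NT siRNA. By CPM it stood there at 7.42 with Satb1 siRNA and 8.89 with NT siRNA, and by FPKM at 1.04 with Satb1 siRNA and 0.98 with NT siRNA, so whether Satb1 was lower in the low experiment depends on the scaling. The dendritic cell genes were unevenly present and did not move together in the high experiment, where 6 of 10 fell and 4 rose. Of all genes tested there, 33.2% were called lower and 32.8% higher. Itgax, which encodes CD11c, stood at 5.47 and 4.93 CPM with Satb1 siRNA and at 20.3 and 20.2 CPM with NT siRNA in those libraries. Flt3, a receptor of dendritic cell development, stood at 1.88 and 1.59 CPM with Satb1 siRNA and at 0.875 and 1.05 CPM with NT siRNA. Both were more abundant in the low libraries, where Itgax stood at 272 CPM with Satb1 siRNA and 159 CPM with NT siRNA, and Flt3 at 41.5 CPM with Satb1 siRNA and 16.4 CPM with NT siRNA. The macrophage gene Csf1r was high in every library, between 425 and 460 CPM in the high experiment and at 953 CPM with Satb1 siRNA and 1726 CPM with NT siRNA in the low one. CPM are counts scaled to a common library size, with TMM, a correction for library composition, over all 6 libraries.

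The ER stress element (ERSE) is the promoter motif through which ATF6, together with the factor NF-Y, acts on chaperone genes, so member promoters were searched for it. Windows of 300 bases, from 250 before the transcription start, came from RefSeq (build GRCm38.p6) and matched 33 of the 39 members. Hyou1, Manf, Atf6, Derl1, Sec61a1 and Ssr2 had no entry. An exact ERSE, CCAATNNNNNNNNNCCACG on either strand, lay in 10 of 33 member promoters (30.3%), against 37 of 27025 genes in the table (0.137%). The related ERSE-II, ATTGG and CCACG with 1 base between them on either strand, lay in Dnajb11 and Herpud1, or 6.06% of the member promoters against 0.0444% of all genes. The core of the unfolded protein response element (UPRE), TGACGTG on either strand, which XBP1 binds, lay in Hspa5 and Txndc5, or 6.06% against 2.22%. No ERSE overlapped an ERSE-II or UPRE core match here. A match describes letters in the window and is not evidence of binding.

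Below are promoters that show these motifs, in the 5′ to 3′ direction of the gene, with the fixed letters of a match in capitals. Hspa5 carries an ERSE and a UPRE core, Pdia6 an ERSE on the gene strand, Calr an ERSE on the opposite strand and Herpud1 an ERSE-II. Ern1 is shown as a sensor gene whose window held none of the 3 motifs.
Hspa5 (chr2:34771840-34772139, + strand): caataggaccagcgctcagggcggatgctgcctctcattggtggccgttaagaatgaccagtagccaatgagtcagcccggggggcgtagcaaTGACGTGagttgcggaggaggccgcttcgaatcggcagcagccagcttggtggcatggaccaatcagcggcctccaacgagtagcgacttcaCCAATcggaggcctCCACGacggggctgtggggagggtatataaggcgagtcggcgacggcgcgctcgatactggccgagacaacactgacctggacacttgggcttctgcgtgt
Pdia6 (chr12:17266339-17266638, + strand): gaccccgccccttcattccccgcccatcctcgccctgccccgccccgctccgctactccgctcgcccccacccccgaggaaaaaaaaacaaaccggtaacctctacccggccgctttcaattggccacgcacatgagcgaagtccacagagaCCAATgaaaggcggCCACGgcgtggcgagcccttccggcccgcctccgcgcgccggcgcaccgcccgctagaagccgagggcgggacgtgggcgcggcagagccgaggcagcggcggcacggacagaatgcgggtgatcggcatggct
Calr (chr8:84846882-84847181, - strand): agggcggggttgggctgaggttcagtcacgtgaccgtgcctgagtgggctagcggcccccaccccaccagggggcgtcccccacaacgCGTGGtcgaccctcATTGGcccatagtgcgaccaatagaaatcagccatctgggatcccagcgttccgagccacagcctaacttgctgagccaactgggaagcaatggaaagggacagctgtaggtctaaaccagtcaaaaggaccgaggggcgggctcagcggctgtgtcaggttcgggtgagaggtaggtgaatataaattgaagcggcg
Herpud1 (chr8:94386179-94386478, + strand): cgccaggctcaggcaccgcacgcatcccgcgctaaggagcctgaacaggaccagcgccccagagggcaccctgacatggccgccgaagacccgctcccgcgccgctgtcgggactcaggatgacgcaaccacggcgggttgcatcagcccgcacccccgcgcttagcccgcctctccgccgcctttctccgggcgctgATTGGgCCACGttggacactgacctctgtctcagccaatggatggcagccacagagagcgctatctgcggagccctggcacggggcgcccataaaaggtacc
Ern1 (chr11:106487747-106488046, - strand): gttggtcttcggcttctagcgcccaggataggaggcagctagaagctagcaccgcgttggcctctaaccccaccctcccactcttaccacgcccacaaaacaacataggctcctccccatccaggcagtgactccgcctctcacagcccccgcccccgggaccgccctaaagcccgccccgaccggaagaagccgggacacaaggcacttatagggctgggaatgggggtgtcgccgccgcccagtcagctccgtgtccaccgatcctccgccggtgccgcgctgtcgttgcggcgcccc

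The other exact ERSE matches are shown as read on the strand that carries them, to let the spacer between the fixed letters be compared.
Hsp90b1, upstream site: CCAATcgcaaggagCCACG
Hsp90b1, downstream site: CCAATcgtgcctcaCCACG
Dnajc3: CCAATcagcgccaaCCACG
Creld2: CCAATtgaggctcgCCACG
Ero1lb: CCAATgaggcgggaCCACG
Canx: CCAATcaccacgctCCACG
Syvn1: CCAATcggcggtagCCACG
Derl3: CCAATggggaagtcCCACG

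**Figure D1:**
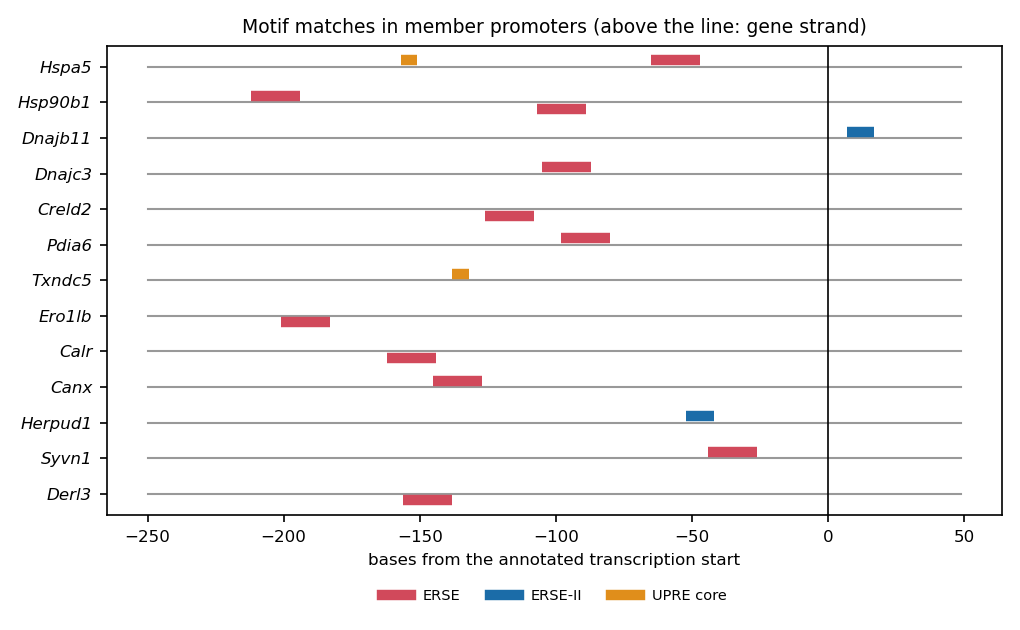
Positions of exact ERSE, ERSE-II and UPRE core matches in the promoter windows of the members that hold any, in bases from the annotated start (0 is the first transcribed base); bars above a line are on the gene strand, bars below it on the opposite strand. The Hspa5 ERSE lies from -65 to -47, and Hsp90b1 is the one member with a pair of ERSE matches.

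The members differed widely in level. By the authors' FPKM, which is per length and so lets genes be compared, Hspa5 led in both NT groups, at a mean of 1882 in the high NT libraries and 877 in the low NT library. Calr (1198 and 541), P4hb (947 and 319) and Hsp90b1 (942 and 305) followed in the same order. The sensors were far lower. Their FPKM in the high NT and the low NT libraries was 32.6 and 15.8 for Atf6, 16.3 and 7.46 for Ern1, and 15.1 and 4.12 for Eif2ak3. Derl3, a degradation factor typical of secretory cells, was lowest at 1.24 and 0.710 FPKM. The next-lowest was the isomerase Pdia5, at 3.41 and 3.46 FPKM.

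The members as a set were lower with Satb1 siRNA in both experiments, with the sensors as the exception. Their summed level was 13317 and 13340 CPM in the high Satb1 siRNA libraries, against 19203 and 19194 CPM in the high NT controls. In the low experiment it was 9368 CPM with Satb1 siRNA and 14703 CPM with NT siRNA. The sum differed by -30.6% in the high experiment and by -36.3% in the low one. As a share of raw counts, the members made up 1.52% in each high Satb1 siRNA library and 2.10% in each high NT library. In the low experiment that share was 0.848% with Satb1 siRNA and 1.04% with NT siRNA. Which experiment had the larger fall of the sum therefore depends on the scaling. Among the high libraries 36 of 39 members fell, Ern1 rose, and Ero1lb and Eif2ak3 did not pass the test. In that comparison edgeR's quasi-likelihood test called 33.2% of all 20242 genes tested lower and 32.8% higher (66% in either direction), at an adjusted p under 0.05. At least 1.5-fold lower were 11 members, against 9.8% of genes. The median log2 fold change was -0.53 over the members and 0.011 over all genes. In the low experiment, which has no replicates and no test, all 39 members had a log2 ratio below 0, against 55.9% of 12977 genes, and 19 were at least 1.5-fold lower, against 11.6% of genes. None was at least 1.5-fold higher, against 14.2% of genes. The median log2 ratio was -0.58 over the members and -0.065 over all genes. With library size alone as the scaling, low ratios moved up by a median of 0.35. The median of all genes then stood at 0.29 and that of the members at -0.23. Only 2 members, Hspa5 and Manf, were then at least 1.5-fold lower. Of 38 members measured under that scaling, 32 were below 0, with Dnajc3, Ero1lb, Ern1, Xbp1, Atf6 and Eif2ak3 above it, and 36 were below the median of all genes.

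All 9 chaperones and cochaperones fell in the high experiment, against 33.2% of all genes called lower. In the low one 5 of them were at least 1.5-fold lower, against 11.6% of genes. Hspa5, the Hsp70 chaperone BiP that also holds the sensors inactive, stood at 2979 and 2985 CPM in the high Satb1 siRNA libraries, against 4406 and 4419 CPM in the high NT controls. Its low-experiment levels were 1613 CPM with Satb1 siRNA and 3210 CPM with NT siRNA. For Hspa5 the log2 fold change was -0.56 (SE 0.0041, edgeR adjusted p = 6.92e-05) in the high experiment. The log2 ratio was -0.99 (95% counting interval -1.01 to -0.97) in the low one. Sdf2l1, a small partner of ER Hsp40 proteins, stood at 35.2 and 31.9 CPM in the high Satb1 siRNA libraries, against 64.6 and 65.7 CPM in the high NT controls. The low experiment gave 48.5 CPM with Satb1 siRNA and 84.5 CPM with NT siRNA. Its log2 changes were -0.95 (SE 0.030, edgeR adjusted p = 3.46e-29) and -0.80 (interval -0.91 to -0.69), among the largest on both sides.

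Manf, a secreted ER protein that binds BiP, stood at 142 and 144 CPM in the high Satb1 siRNA libraries, against 229 and 229 CPM in the high NT controls. Low-experiment values were 94.9 CPM with Satb1 siRNA and 194 CPM with NT siRNA. With -0.68 (SE 0.016) and -1.03 (interval -1.11 to -0.95), it was the 1 member more than 2-fold lower in the low experiment. Creld2, an ER protein with a thiol-exchange motif, stood at 60.5 and 60.5 CPM in the high Satb1 siRNA libraries, against 108 and 105 CPM in the high NT controls. Levels in the low experiment were 58.1 CPM with Satb1 siRNA and 87.6 CPM with NT siRNA, and its log2 changes were -0.81 (SE 0.024) and -0.59. Hsp90b1, the ER Hsp90 that folds integrins and Toll-like receptors, stood at 1566 and 1583 CPM in the high Satb1 siRNA libraries, against 2281 and 2275 CPM in the high NT controls. The low libraries held 808 CPM with Satb1 siRNA and 1217 CPM with NT siRNA. Its log2 changes of -0.53 and -0.59 lay close together.

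Dnajb9, an Hsp40 cochaperone of BiP, stood at 115 and 116 CPM in the high Satb1 siRNA libraries, against 166 and 168 CPM in the high NT controls. Its low-experiment levels were 40.9 CPM with Satb1 siRNA and 60.7 CPM with NT siRNA. Its log2 changes were -0.53 and -0.57. Dnajb11, another BiP cochaperone, had log2 changes of -0.58 and -0.58, and Hyou1, a large Hsp70-like exchange factor, of -0.69 and -0.52. The smallest change of the group was that of Dnajc3, a cochaperone that also restrains PERK, at -0.20 and -0.34.

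**Figure D2:**
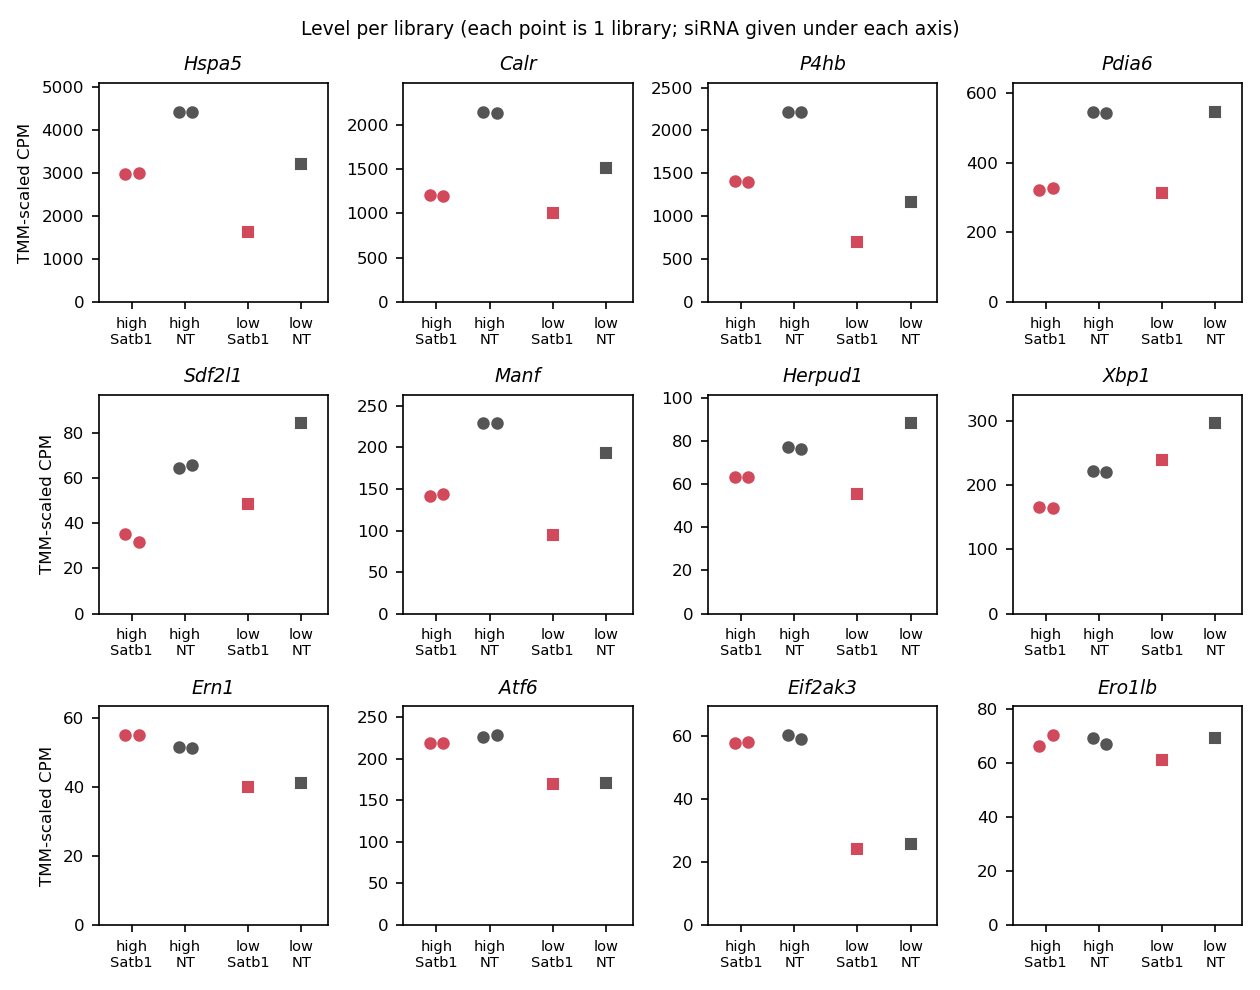
TMM-scaled CPM of 12 members in each of the 6 libraries, red for Satb1 siRNA and grey for NT siRNA, circles for the high and squares for the low experiment; each vertical axis starts at 0. Hspa5, Calr, P4hb, Pdia6, Sdf2l1 and Manf are lower with Satb1 siRNA in both experiments, while the points of Atf6, Eif2ak3 and Ero1lb lie close together within an experiment.

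Of the 8 disulfide and proline enzymes 7 fell in the high experiment, against 33.2% of all genes called lower. In the low one 2 were at least 1.5-fold lower, against 11.6% of genes. P4hb, the founding protein disulfide isomerase, stood at 1411 and 1401 CPM in the high Satb1 siRNA libraries, against 2220 and 2219 CPM in the high NT controls. The low experiment gave 705 CPM with Satb1 siRNA and 1169 CPM with NT siRNA, and its log2 changes were -0.65 (SE 0.0017, edgeR adjusted p = 5.80e-110) and -0.73 (interval -0.76 to -0.70). Pdia6, an isomerase that works with BiP, stood at 323 and 327 CPM in the high Satb1 siRNA libraries, against 548 and 544 CPM in the high NT controls. Low-experiment values were 313 CPM with Satb1 siRNA and 546 CPM with NT siRNA, with log2 changes of -0.74 and -0.81. Both genes were lower with Satb1 siRNA in each experiment. The interaction test given further on called a difference between their changes (high minus low), at 0.071 for P4hb and 0.059 for Pdia6. With library size alone the sign turned, to -0.22 and -0.24, so the direction of that difference depends on the scaling.

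Pdia4 showed unequal changes. It stood at 337 and 335 CPM in the high Satb1 siRNA libraries, against 615 and 611 CPM in the high NT controls, a log2 fold change of -0.86 (SE 0.0064, edgeR adjusted p = 5.09e-83). Levels in the low experiment were 183 CPM with Satb1 siRNA and 238 CPM with NT siRNA, a log2 ratio of -0.38 (interval -0.44 to -0.32). That ratio was -0.028 with library size alone, so the size of the fall depends on the scaling. Pdia3, which pairs with the lectin chaperones, had -0.53 and -0.53, and the weakly expressed Pdia5 -0.82 and -0.50. Txndc5 had -0.28 and -0.54, and Ppib, the ER cyclophilin, -0.43 and -0.53. Ero1lb, an oxidase that recharges the isomerases, stood at 66.5 and 70.7 CPM in the high Satb1 siRNA libraries, against 69.3 and 67.2 CPM in the high NT controls. The groups overlapped, and its log2 fold change of 0.012 was not called (edgeR adjusted p = 0.692). The low libraries held 61.1 CPM with Satb1 siRNA and 69.4 CPM with NT siRNA, a log2 ratio of -0.18 (interval -0.29 to -0.073).

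The lectin chaperones bind newly made glycoproteins and, in antigen-presenting cells, MHC class I chains. Calr stood at 1204 and 1198 CPM in the high Satb1 siRNA libraries, against 2147 and 2130 CPM in the high NT controls. Its low-experiment levels were 1002 CPM with Satb1 siRNA and 1512 CPM with NT siRNA. Its log2 changes were -0.83 (SE 0.0087, edgeR adjusted p = 1.43e-04) and -0.59 (interval -0.62 to -0.57). Canx, the membrane-bound relative, changed less, at 1217 and 1213 CPM in the high Satb1 siRNA libraries against 1459 and 1462 CPM in the high NT controls, a log2 fold change of -0.26 (SE 0.0022). The low experiment gave 579 CPM with Satb1 siRNA and 743 CPM with NT siRNA, a log2 ratio of -0.36. That ratio was -0.0056 with library size alone, so this fall depends on the scaling.

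The 3 sensor genes changed little, while Xbp1 was lower. Ern1 stood at 55.1 and 55.1 CPM in the high Satb1 siRNA libraries, against 51.6 and 51.2 CPM in the high NT controls, a rise of 0.10 on the log2 scale (SE 0.026, edgeR adjusted p = 3.67e-04). Low-experiment values were 39.9 CPM with Satb1 siRNA and 41.1 CPM with NT siRNA, a log2 ratio of -0.042 whose interval (-0.18 to 0.098) spans 0. Atf6 stood at 219 and 219 CPM in the high Satb1 siRNA libraries, against 227 and 229 CPM in the high NT controls, a log2 fold change of -0.055 (SE 0.014, edgeR adjusted p = 2.83e-04). That call ended with library size alone (-0.00096, edgeR adjusted p = 0.927). Levels in the low experiment were 169 CPM with Satb1 siRNA and 171 CPM with NT siRNA.

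Eif2ak3, which encodes PERK, stood at 57.9 and 58.1 CPM in the high Satb1 siRNA libraries, against 60.6 and 59.3 CPM in the high NT controls, and was not called (-0.043, edgeR adjusted p = 0.137; 0.012 with library size alone). The low libraries held 24.3 CPM with Satb1 siRNA and 25.7 CPM with NT siRNA, and the interval of its log2 ratio (-0.26 to 0.094) spans 0. Xbp1, the transcription factor downstream of IRE1, stood at 166 and 164 CPM in the high Satb1 siRNA libraries, against 222 and 221 CPM in the high NT controls, a log2 fold change of -0.42 (SE 0.015, edgeR adjusted p = 1.85e-37). Its low-experiment levels were 239 CPM with Satb1 siRNA and 297 CPM with NT siRNA, a log2 ratio of -0.31 (interval -0.37 to -0.26) that was 0.043 with library size alone, against 0.29 for the median of all genes.

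All 8 genes of ER-associated degradation fell in the high experiment, against 33.2% of all genes called lower. At least 1.5-fold lower were 6 of them in the low experiment, against 11.6% of all genes, and 1 in the high one, against 9.8%. With library size alone the largest low-experiment fall among those measured was that of Derl2, at -0.41, which is less than 1.5-fold. The contrast between the experiments therefore depends on the scaling. Herpud1, which organises the degradation complex, stood at 63.3 and 63.4 CPM in the high Satb1 siRNA libraries, against 77.2 and 76.3 CPM in the high NT controls. The low experiment gave 55.3 CPM with Satb1 siRNA and 88.3 CPM with NT siRNA, and its log2 changes were -0.27 (SE 0.024, edgeR adjusted p = 2.49e-16) and -0.67 (interval -0.78 to -0.57). The channel components Derl1 and Derl2 had -0.14 and -0.29 in the high experiment and -0.59 and -0.77 in the low one. The mannosidase-like factor Edem1 had -0.20 and -0.64, and its relative Edem2 -0.77 and -0.66. The ubiquitin ligase gene Syvn1 had -0.40 and -0.61, and its partner Sel1l -0.069 and -0.38. The Sel1l call of the high experiment ended with library size alone (-0.014, edgeR adjusted p = 0.380). Its low-experiment ratio was -0.027 under that scaling.

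Derl3 had few counts, from 23 to 111 per library, and stood at 0.966 and 0.948 CPM in the high Satb1 siRNA libraries against 1.44 and 1.42 CPM in the high NT controls. Its log2 fold change of -0.58 (SE 0.17, edgeR adjusted p = 2.14e-03) was not called by DESeq2 (adjusted p = 0.0939). Low-experiment values were 1.03 CPM with Satb1 siRNA and 1.36 CPM with NT siRNA, and its counting interval (-1.27 to 0.47) allows a change in either direction.

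All 8 genes of translocation, signal peptide removal and vesicle exit fell in the high experiment, against 33.2% of all genes called lower. In the low one 5 were at least 1.5-fold lower, against 11.6% of genes. Ssr2, a subunit of the translocon-associated protein complex, had the largest fall of all members in the high experiment. It stood at 19.9 and 19.3 CPM in the high Satb1 siRNA libraries, against 44.3 and 42.2 CPM in the high NT controls, a log2 fold change of -1.14 (SE 0.035, edgeR adjusted p = 1.76e-41). Levels in the low experiment were 99.2 CPM with Satb1 siRNA and 137 CPM with NT siRNA, a log2 ratio of -0.47. The subunits Ssr1 and Ssr3 of the same complex fell by less in the high experiment, with log2 fold changes of -0.28 and -0.24, and stood at -0.52 and -0.68 in the low one.

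Sec61a1, the pore of the channel, stood at 119 and 119 CPM in the high Satb1 siRNA libraries, against 176 and 175 CPM in the high NT controls. The low libraries held 252 CPM with Satb1 siRNA and 370 CPM with NT siRNA, and its log2 changes were -0.56 (SE 0.018, edgeR adjusted p = 6.97e-40) and -0.55 (interval -0.60 to -0.50). The small channel subunits Sec61b and Sec61g had -0.35 and -0.26 in the high experiment and -0.72 and -0.64 in the low one. The signal peptidase subunit Spcs2 had -0.54 and -0.62, and the COPII coat gene Sec23b -0.54 and -0.66.

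The experiments were then set against each other member by member. They share no library. A total of 37 members were below 0 in both, against 38.8% of 12920 genes compared, and 7 were at least 1.5-fold lower in both, against 1.94% of genes. Across the 39 members the effects had a Pearson correlation of 0.48 (Spearman 0.37), and of 0.26 (Spearman 0.19) without the 4 sensors and transcription factors, against 0.26 (Spearman 0.32) across all genes compared. Genes are not independent replicates, so these values are a description. The difference of the effects, tested in edgeR as an interaction with the spread of the high repeats assumed for the low libraries, was called for 25 of 39 members, against 39.7% of 20971 genes. The effect was more negative in the low experiment for 19 members, against 17.9% of genes, and in the high experiment for 6, against 21.8%. With library size alone these counts were 5 and 23, so the direction of the difference depends on the scaling for the set. The shares of all genes called under that scaling are not given here. The median difference was then -0.22 over the members and -0.30 over all genes. Under that scaling Hspa5, Edem1, Derl1, Derl2 and Ssr3 were still called as more negative in the low experiment. Hyou1, Creld2, Pdia4, Calr, Xbp1 and Ssr2 were called as more negative in the high one. Library size alone lowered the difference of every member, so it could not have reversed these last signs. DESeq2 did not call Hyou1, Creld2 or Xbp1 for a difference.

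**Figure D3:**
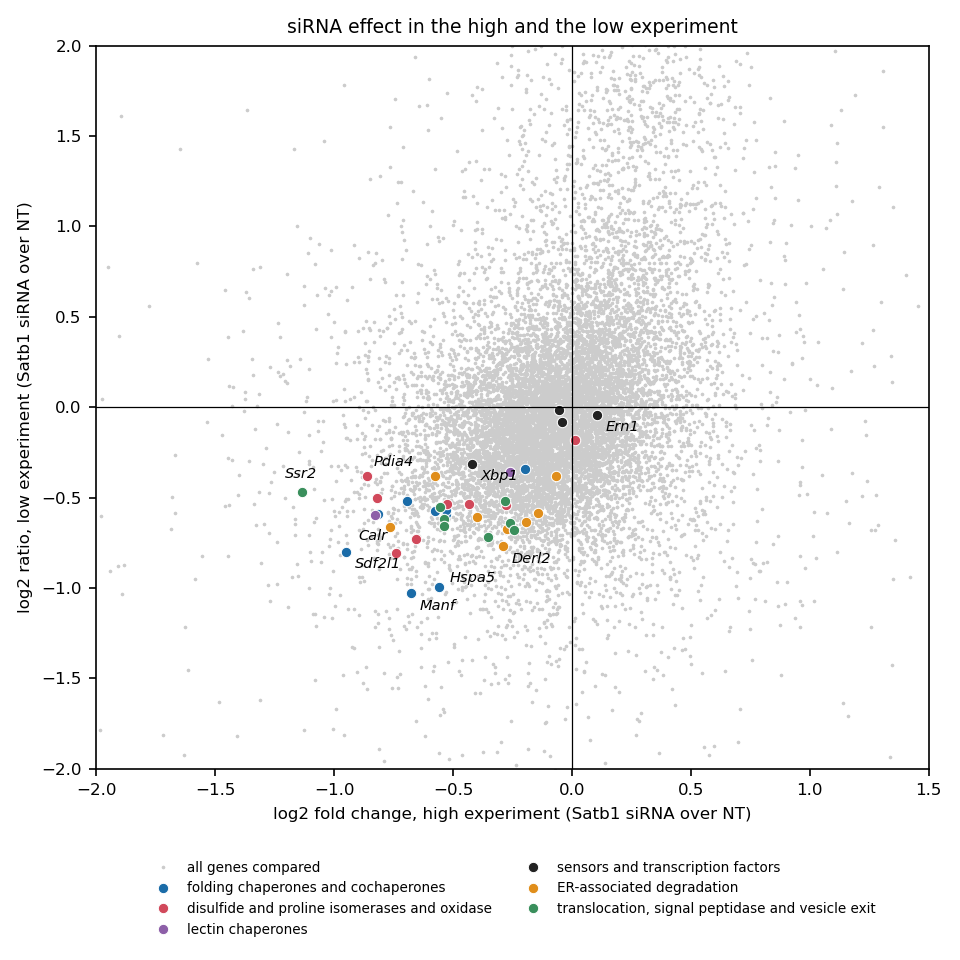
Log2 change with Satb1 siRNA over NT siRNA in the high experiment (horizontal) and the low experiment (vertical); each grey point is 1 of 12920 genes, 349 of which lie outside the axes, and coloured points are the members by role. The members other than Ern1, Atf6, Eif2ak3 and Ero1lb lie in the lower left of the plot, away from the origin.

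A test that counts each group once, with repeats summed and the experiment as a term, asks whether the siRNA effect exceeds the spread between the experiments. Its median log2 fold change was -0.53 over the members and -0.011 over all genes. EdgeR called 0 of 39 members (smallest adjusted p = 0.193), with 26 at an unadjusted p under 0.05, against 8.56% of 19068 genes. It called 0.0315% of all genes. DESeq2 called 6 members, all lower: Hspa5, Sdf2l1, Manf, P4hb, Pdia6 and Calr, with adjusted p from 0.0230 to 0.0441, against 0.65% of genes called lower and 0.954% in either direction. Without a filter on low counts edgeR called 7 members, and the share of all genes called without it is not given here. A single residual degree of freedom limits every version of this test.

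The control libraries differed as well. The median log2 ratio of low NT over high NT was -0.0057 over the members and 0.13 over all genes, with 7 members at least 1.5-fold lower and 10 at least 1.5-fold higher, against 29.6% and 37.2% of 13225 genes. Syvn1 was at 93.3 CPM in low NT and at 14.9 and 14.8 CPM in high NT. Dnajc3 went the other way, at 127 CPM in low NT and at 422 and 418 CPM in high NT.

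Of 119 other genes of the pathway 113 were in the table and tested. In the high experiment 84 fell, 15 rose and 14 were not called, with a median log2 fold change of -0.21. Of all genes tested there, 33.2% were called lower and 32.8% higher. In the low experiment 95 of 111 were below 0, against 55.9% of all genes, with a median log2 ratio of -0.32. Among the output genes of the PERK arm, Ppp1r15a, which encodes the GADD34 subunit of a phosphatase, had the largest fall of the list at -1.01 (SE 0.026, edgeR adjusted p = 3.24e-47). It stood at 42.5 and 42.1 CPM in the high Satb1 siRNA libraries, against 85.7 and 84.9 CPM in the high NT controls, and at 204 CPM with Satb1 siRNA and 382 CPM with NT siRNA in the low experiment. Atf4, the transcription factor of that arm, fell by 0.47 on the log2 scale in the high experiment and stood at -0.063 in the low one, and its target Ddit3 had -0.56 and -0.33. Trib3, another target, fell by 0.24, and Chac1 was not called (-0.17, edgeR adjusted p = 0.202).

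N-glycosylation genes fell in 14 of 16 cases in the high experiment, with a median of -0.37, led by the oligosaccharyltransferase subunit Rpn1 at -0.81. Kdelr2, a receptor that returns escaped ER proteins, fell by 0.63. The 3 largest rises were Fkbp7 (0.54), Uggt2 (0.53) and Fkbp14 (0.37). The counts of the other lists are given as fell, rose and not called, beside 33.2% of all genes called lower and 32.8% higher. Degradation had 13, 1 and 1 of 15, and translocon and signal peptidase 14, 3 and 1 of 18. For vesicle exit and retrieval the counts were 16, 2 and 2 of 20. For other oxidoreductases and isomerases they were 8, 3 and 6 of 17, for other chaperones 7, 3 and 1 of 11, for other sensors and activators 5, 1 and 2 of 8, and for the PERK arm 7, 0 and 1 of 8. Ero1l, the hypoxia-responsive paralog of Ero1lb, was chosen for mention after its values were seen. It stood at 396 and 396 CPM in the high Satb1 siRNA libraries, against 570 and 569 CPM in the high NT controls. Its low-experiment levels were 150 CPM with Satb1 siRNA and 580 CPM with NT siRNA, a log2 ratio of -1.95.

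Cell type markers moved beside these results, and in bulk RNA fewer cells of a type and less RNA per cell cannot be told apart. Summed macrophage markers (10 of 10 genes) were at 10915 and 10887 CPM in the high Satb1 siRNA libraries, against 7992 and 7993 CPM in the high NT controls, but at 10801 CPM with Satb1 siRNA and 20711 CPM with NT siRNA in the low experiment. Lyz2 made up most of that sum, at 8381 and 8370 CPM in the high Satb1 siRNA libraries and 5533 and 5545 CPM in the high NT libraries, and at 5640 CPM with Satb1 siRNA and 12256 CPM with NT siRNA in the low experiment. Of the 10 genes 6 rose, 3 fell (Cd68, C1qa and C1qb) and 1 was not called in the high experiment. The shares of all genes were 32.8% called higher and 33.2% lower. The median log2 fold change of the 10 was 0.068. Their median log2 ratio in the low experiment was -0.76, with 9 of 10 below 0, against 55.9% of all genes. Summed dendritic cell markers (10 of 10) were at 262 and 249 CPM with Satb1 siRNA and at 459 and 456 CPM with NT siRNA in the high experiment, and at 10754 CPM with Satb1 siRNA and 10988 CPM with NT siRNA in the low one. Cd74, H2-Aa and H2-Ab1 made up most of the low sums. Of the 10 genes 6 were at least 1.5-fold higher with Satb1 siRNA in the low experiment, against 14.2% of all genes. The median log2 ratio over the list was 0.84 there, while the median log2 fold change in the high experiment was -0.44.

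Plasma cells are rich in ER. Their summed markers (9 of 9) came to 100 and 97.4 CPM in the high Satb1 siRNA libraries against 158 and 161 CPM in the high NT controls, and 502 CPM with Satb1 siRNA against 799 CPM with NT siRNA in the low experiment. Most of that sum was Slamf7, at 66.0 and 63.9 CPM in the high Satb1 siRNA libraries and 116 and 118 CPM in the high NT libraries. In the low experiment Slamf7 was at 404 CPM with Satb1 siRNA and 664 CPM with NT siRNA. The sum therefore mainly follows that 1 gene. Sdc1, which encodes the surface protein CD138, stood at 12.7 and 12.6 CPM in the high Satb1 siRNA libraries and 21.8 and 22.5 CPM in the high NT libraries, and at 42.7 CPM with Satb1 siRNA and 55.9 CPM with NT siRNA in the low experiment. Prdm1, which encodes the factor BLIMP-1, stood at 8.71 and 8.64 CPM in the high Satb1 siRNA libraries and 10.5 and 10.02 CPM in the high NT libraries, and at 20.8 CPM with Satb1 siRNA and 44.1 CPM with NT siRNA in the low experiment. Of 7 plasma cell genes tested in the high experiment 3 fell (Slamf7, Sdc1 and Prdm1), 3 rose and 1 was not called. The shares of all genes were 33.2% called lower and 32.8% higher. Those that rose were Irf4 (log2 fold change 0.29), Pou2af1 (0.77) and Cd27 (0.51). In the low experiment 6 of 7 were below 0, against 55.9% of all genes. The other defining genes Tnfrsf17 and 2010001M09Rik (Mzb1) stayed under 1 CPM in every library. Igj stood at 0.678 and 0.858 CPM in the high Satb1 siRNA libraries against 0.646 and 0.936 CPM in the high NT controls. The low experiment gave 0.360 CPM with Satb1 siRNA and 4.55 CPM with NT siRNA. Summed B cell markers (8 of 8) were at 32.0 and 30.1 CPM in the high Satb1 siRNA libraries, against 17.4 and 17.0 CPM in the high NT controls. In the low experiment the sum went the other way, at 25.1 CPM with Satb1 siRNA and 35.7 CPM with NT siRNA. Tumour, epithelial or mesothelial markers (7 of 8) summed to 702 and 696 CPM with Satb1 siRNA and to 643 and 645 CPM with NT siRNA in the high experiment, and to 605 CPM with Satb1 siRNA and 168 CPM with NT siRNA in the low one. Fibroblast markers (7 of 7) summed to 262 and 260 CPM in the high Satb1 siRNA libraries against 212 and 208 CPM in the high NT controls, and to 110 CPM with Satb1 siRNA and 50.1 CPM with NT siRNA in the low experiment. The part of these cell types in the changes of the members was not tested.

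Members with an exact ERSE were compared with the rest as a description. The 10 with the motif had a median log2 change of -0.54 in the high and -0.59 in the low experiment, and the 23 matched members without it -0.42 and -0.58. The ranges overlapped, from -0.83 to 0.012 with the motif and from -0.95 to 0.10 without it in the high experiment. Ero1lb carries an ERSE and was not called, while Sdf2l1 lacks an exact one and fell by 0.95 in the high experiment.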

How the data were processed

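RNA of 6 libraries was made with Trizol and the TruSeq Stranded Total RNA kit, per the labels' protocols. RSEM 1.2.12, DESeq2 and the genome build mm9 are named in the submitters' processing notes; aligner, filters and strand handling are not stated there. The authors' deposited table holds FPKM values (per length and library size) and counts, taken as RSEM's expected counts; all were whole, so rounding changed nothing. Such counts divide reads shared by near-identical genes.

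Columns were tied to samples by their headers. The high experiment was tested with edgeR 4.0.16 in R 4.3.3 (quasi-likelihood, robust, TMM, filterByExpr, two-sided, Benjamini-Hochberg over all genes, threshold 0.05). Repeats of a high group are near-technical. The low experiment and the NT libraries were compared as log2 ratios of CPM (prior count 2, TMM over 6 libraries, mean log2 CPM of at least 0), with exact 95% counting intervals given the TMM sizes, which cover counting error only. The limit that a 0 allows is 3 counts, which is 0.0384 to 0.157 CPM. DESeq2 1.42.0 was an alternative. The fits were tested on simulated data. Same-numbered high libraries did not deviate together (r = -0.040), so numbers were not used as pairs. Motifs were searched in RefSeq promoter windows; the last 20 bases lay in a transcript of the gene for 29 of 33 members. Protein sequences were not analysed here. The members, lists, alternatives and the naming rule (members central to the pathway by role, the 3 largest and 3 smallest changes, and of the other genes 5 fixed ones and the 3 largest rises and falls) were chosen with earlier results of these data known.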

Additional observations from a re-analysis of the deposited data

Results flagged for a closer look

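The effect of Satb1 siRNA differed between the experiments for 25 members by edgeR's interaction test, with the spread of the high repeats assumed for the single low libraries. Differences are given as the log2 effect of the high experiment minus that of the low one, so a positive value means a more negative effect in the low experiment. Among chaperones the difference was 0.43 for Hspa5, 0.35 for Manf, 0.14 for Dnajc3, -0.18 for Hyou1 and -0.23 for Creld2. Among enzymes it was 0.26 for Txndc5, 0.19 for Ero1lb, 0.094 for Ppib, 0.071 for P4hb, 0.059 for Pdia6 and -0.48 for Pdia4. The lectin chaperones Canx and Calr had 0.095 and -0.24, and Xbp1 had -0.11. Among degradation factors it was 0.47 for Derl2, 0.44 for Derl1, 0.44 for Edem1, 0.40 for Herpud1, 0.31 for Sel1l and 0.20 for Syvn1. Among genes of translocation it was 0.43 for Ssr3, 0.37 for Sec61g, 0.36 for Sec61b, 0.23 for Ssr1 and -0.67 for Ssr2. Of the 19 positive differences 10 were also positive with scaling by library size alone, and all 6 negative ones were negative there. That scaling lowered the difference of every member, so it could not have turned a negative one positive. Of the 25 members, DESeq2 did not call Hyou1, Creld2 and Xbp1 (negative differences) or Ero1lb, Syvn1 and Sec61b (positive ones). Those of Dnajc3, P4hb, Pdia6, Txndc5, Ero1lb, Ppib, Canx, Syvn1 and Ssr1 turned negative. The median difference was 0.079 over the members and -0.021 over all genes, or -0.22 and -0.30 with library size alone. With 1 library per low group, variation between animals cannot be told apart from these differences.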

How the results depend on the processing

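Over the high experiment's alternatives the members called lower numbered 34 to 36, and DESeq2 size factors, no filter, group means over 6 libraries and the replicate block (36 lower, 1 higher, median -0.53) changed no call of a member. With library size alone 2 members were higher and the median was -0.47; Ero1lb was called (0.066, edgeR adjusted p = 0.0214), and Eif2ak3 changed sign (0.012). Without 1 library the median ran from -0.53 to -0.52, the members lower stayed at 36 and the other pathway genes lower ran from 80 to 86. Ero1lb changed sign without high NT replicate 2 (-0.017) and without high Satb1 siRNA replicate 2 (-0.032), and was 0.057 without high Satb1 siRNA replicate 1. Of 390 member values in all, 383 kept direction and side of the threshold. In the low experiment library size alone left 2 members at least 1.5-fold lower and a median of -0.23, a 2-fold rule left 1, and 6 members changed sign: Dnajc3 (0.012), Ero1lb (0.17), Xbp1 (0.043) and, with intervals that span 0 in the TMM scaling, Ern1 (0.31), Atf6 (0.34) and Eif2ak3 (0.27). The control ratio of the members was -0.62 with library size alone and 0.039 with DESeq2 size factors, and without 1 high NT library ran from -0.00097 to 0.0067, so its sign is not fixed. The members called for a difference of effects were 23 (high more negative) and 5 (low more negative) with library size alone and 3 and 17 with DESeq2; with the replicate block they were 7 and 21, and without 1 library 4 to 7 and 17 to 20. Over both experiments 7 members were called without a filter and 6 by DESeq2, against 0. The shares of all genes called for a difference of effects under these alternatives, or without a filter, are not given here. With 1 mismatch allowed, 16 members held an ERSE (1.72% of all genes), 8 an ERSE-II and 19 a UPRE core (42.6% of all genes); on the forward strand 6 held an ERSE. The causes were not tested. The check of protein C termini was not run. Replicate numbers did not pair the libraries (correlation of deviations -0.040).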
